A study of Mus musculus with 3 samples.

Results

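A set of 10 genes of the Hippo pathway was examined in B16 mouse melanoma cells: the coactivator genes Yap1 and Wwtr1 (which encodes TAZ), the DNA-binding partner genes Tead1, Tead2, Tead3 and Tead4, the kinase genes Lats1 and Lats2, and the target genes Ctgf and Cyr61. They were chosen by symbol, and all 10 of 10 had a row among the 17285 rows of the count table. RNA was sequenced in 3 samples, Mock replicates 1, 2 and 3, of a single group: a B16 line that stably carries an empty vector. The labels do not name the vector or its selection, or say whether the line is 1 clone. With 1 group there was nothing to compare between conditions, so each level was set against 1 CPM (counts scaled to library size), against its paralogs in the same library, and between the 3 libraries. Nothing in the labels ties the replicates to separate cultures, and the p-values therefore cover only the spread among these 3 samples, which may be technical.

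The Hippo pathway is a kinase cascade that restrains growth. MST kinases activate the LATS kinases, which phosphorylate YAP and TAZ and keep them out of the nucleus, while unphosphorylated YAP and TAZ enter the nucleus and bind TEAD proteins on DNA. Ctgf and Cyr61, which encode secreted matricellular proteins of the CCN family, are the targets most often read as a sign of YAP and TAZ activity. Much of this control acts on proteins, so transcript levels show which genes are transcribed, and not how much protein is made or how active it is.

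The libraries held 9328087 to 9456501 counts after rounding, so 1 read was worth about 0.106 CPM. Against the label of a melanoma line, the 6 pigment cell markers were checked, and all were above 1 CPM, from Mitf at 135 ± 6.80 CPM to Tyrp1 at 12337 ± 399 CPM (mean ± SD of 3 libraries, as in all values that follow). Dct, Pmel and Mlana had 2713 ± 47.7, 1258 ± 66.6 and 919.6 ± 18.1 CPM. Markers of other cell types were mostly low, but not all. Of 9 fibroblast markers 4 were above 1 CPM: Col1a2 at 27.6 ± 1.39, which exceeds the median of 23.6 CPM over all genes with a count, Col1a1 at 8.29 ± 1.62, Pdgfrb at 3.33 ± 0.421 and Postn at 3.22 ± 0.408 CPM. Pdgfra was below, a call lost without replicate 1, and Col3a1, Dcn, Fap and Thy1 were without a count. Of 9 endothelial markers Egfl7 alone was above, at 11.9 ± 0.436 CPM, which made up nearly all of their summed 12.1 to 13.0 CPM per library. Below were 4, namely Vwf at 0.390, Pecam1 at 0.106, and Tek and Esam at 0.0710 CPM each (Vwf lost the call without each replicate in turn), while Cdh5, Kdr, Tie1 and Emcn had no count. The 8 epithelial markers summed to 21.6 CPM in replicate 1, 3.92 in replicate 2 and 9.33 in replicate 3. Above 1 CPM were the keratin genes Krt8, with a mean of 5.04 ± 4.41 CPM, and Krt18, with 3.30 ± 2.98 CPM, and both calls were lost without replicate 1 (edgeR adjusted p = 0.105 for Krt8 and 0.369 for Krt18). Krt18 also lost its call without replicate 3 (adjusted p = 0.110). The levels of Krt19 (2.02 ± 1.66 CPM) and Cdh1 (1.17 ± 0.284 CPM) were unresolved, though Krt19 was called above without replicate 2 (adjusted p = 0.0236). Cldn4 and Cldn7 were below 1 CPM and had no count left without replicate 2, and Krt14 and Esrp1 were without a count. None of 9 leukocyte markers was above 1 CPM. Cd8a at 0.426, Laptm5 at 0.284 and Cd79a at 0.106 CPM were below by edgeR, of which 1 was left without replicate 1, 2 without replicate 2 and 1 without replicate 3. Cd3g, Cd4, Csf1r, Adgre1, Tyrobp and Ly6g had no count. In bulk RNA, fewer cells of a type and less RNA per cell cannot be told apart.

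Transcripts of 9 of the 10 genes were well above the lowest measurable levels, and Ctgf was scarce. These 9 genes were above 1 CPM by the quasi-likelihood F test of edgeR (adjusted p from 4.39e-15 for Yap1 to 1.63e-07 for Tead3), against 74.3% of all 14408 genes tested. None of the 10 was called below 1 CPM, where 20.2% of all genes stood, and none was so at an unadjusted p under 0.05. DESeq2's Wald test also called 9 above. It called 0 of all genes below 1 CPM, even at an unadjusted p under 0.05, so it could not decide on low genes. The median of the 10 genes was 73.9 CPM, beside 23.6 CPM over all genes with a count. The calls above 1 CPM held without each replicate in turn and against 0.5 and 2 CPM.

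**Figure D1:**
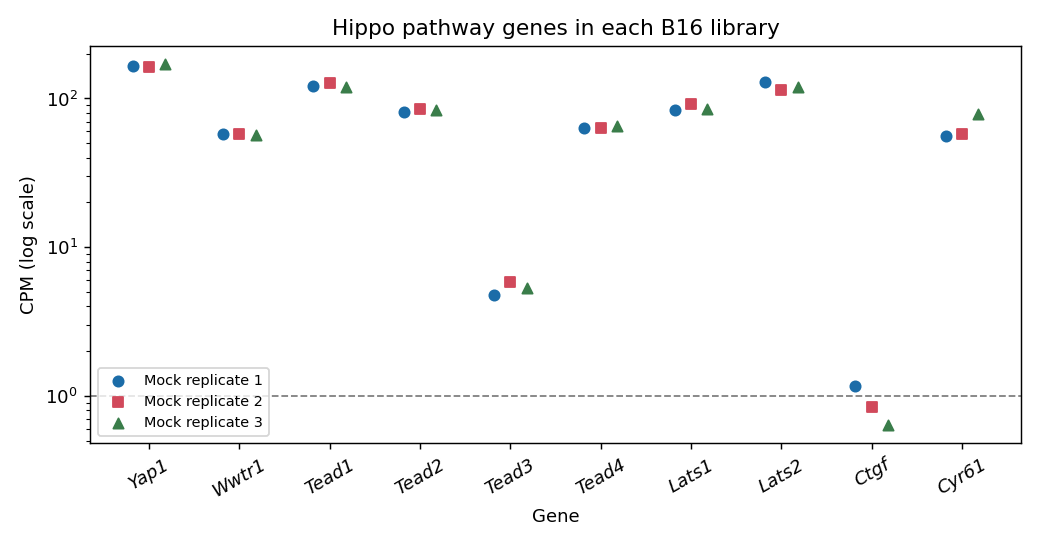
CPM of each gene (log axis) in Mock replicates 1, 2 and 3, with 1 CPM as a dashed line. Yap1 is the highest at 163 to 171 CPM, Tead3 lies near 5 CPM and the 3 libraries of Ctgf straddle the line, while Cyr61 is higher in replicate 3 than in the other libraries.

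Both coactivators were transcribed, Yap1 more than Wwtr1. Yap1 (chromosome 9, 7931999 to 8004596, minus strand, GRCm38) stood at 166, 163 and 171 CPM in replicates 1, 2 and 3, a mean of 167 ± 3.70 CPM. Wwtr1 (chromosome 3, 57455649 to 57575910, minus strand) stood at 57.6, 57.3 and 56.7 CPM, a mean of 57.2 ± 0.434 CPM. Neither gene separated any library from the others, and the values of Yap1 lay above those of Wwtr1 in every library.

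A longer transcript collects more reads, so genes were compared per kilobase of merged annotated exon. On that scale Yap1 reached 17.99 ± 0.400 and Wwtr1 12.0 ± 0.0909 CPM per kilobase. The log2 ratio of Yap1 to Wwtr1 was 0.57, 0.55 and 0.63 in the 3 libraries, with a mean of 0.59 ± 0.04 (SE 0.03), or 1.50-fold (limma adjusted p = 2.31e-06, higher in 3 of 3 libraries). By the same test 28.7% of all genes lay above Wwtr1 per kilobase. The size of the gap rests on the length used: with the longest annotated transcript in place of all merged exons it was 2.59-fold. Yap1 thus held 60.0% ± 0.684 of the reads per kilobase of the pair, or 72.1% with the longest transcript.

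Since all genes of such a fit share the noise of 1 reference gene, limma's p-values for ratios can be too small. A test added after seeing the data combined the errors of the 2 genes' edgeR fits instead. Like limma, edgeR draws each gene's variance towards that of all genes, so these p-values can be too small as well. For Lats2 to Lats1 the SE of the log2 ratio was 0.051 by edgeR and 0.055 by limma. The edgeR test gave adjusted p-values between 6.65e-09 and 6.65e-06, all in the same direction as limma. They cover the ratios of Yap1 to Wwtr1, of 3 TEAD genes to Tead1, of Lats2 to Lats1 and of Ctgf to Cyr61.

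Of the TEAD transcription factors, which carry YAP and TAZ to DNA, Tead1, Tead2 and Tead4 were all well transcribed and Tead3 was scarce. Tead1 (chromosome 7, 112679318 to 112906807, plus strand) had 122, 128 and 119 CPM in replicates 1, 2 and 3, with a mean of 123 ± 4.26 CPM. Tead2 (chromosome 7, 45215753 to 45233644, plus strand) had 81.6, 85.4 and 83.8 CPM, with a mean of 83.6 ± 1.91 CPM. Tead4 (chromosome 6, 128224288 to 128300823, minus strand) had 63.8, 63.6 and 65.3 CPM, with a mean of 64.2 ± 0.954 CPM. The ranges of these 3 genes in CPM did not overlap. Tead3 (chromosome 17, 28331671 to 28350817, minus strand) had 45, 55 and 50 reads, which is 4.81, 5.83 and 5.30 CPM, with a mean of 5.31 ± 0.511 CPM.

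The order of the TEAD genes turned around once length was taken into account. Tead1 has 13.6 kilobases of merged exon and Tead4 3.60, so per kilobase Tead4 reached 17.9 ± 0.265, Tead2 17.5 ± 0.399, Tead1 9.05 ± 0.314 and Tead3 0.791 ± 0.0761 CPM. Relative to Tead1 in the same library, the log2 ratio per kilobase was 0.98 ± 0.07 for Tead4 (SE 0.04), 1.97-fold, and 0.95 ± 0.04 for Tead2 (SE 0.04), 1.93-fold. The limma adjusted p was 4.21e-12 for Tead4 and 4.31e-12 for Tead2, each higher in 3 of 3 libraries, and 35% of all genes lay above Tead1 by the same test. In reads without length both ratios were negative, at -0.93 for Tead4 and -0.55 for Tead2. Tead3 lay 11.4-fold below Tead1 per kilobase (log2 ratio -3.51 ± 0.11, SE 0.16, limma adjusted p = 4.97e-12, lower in 3 of 3 libraries), a side on which 61.1% of all genes stood.

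The order of Tead2 and Tead4 was not resolved. Their ranges per kilobase overlapped (17.0 to 17.8 and 17.7 to 18.2 CPM per kilobase), and the longest-transcript lengths put Tead2 ahead. In shares of the family's reads per kilobase, Tead4 held 39.5% ± 0.821, Tead2 38.7% ± 0.314, Tead1 20.0% ± 0.563 and Tead3 1.75% ± 0.143. With the longest transcript the shares were 35.2%, 41.5%, 20.8% and 2.60%. Cross-mapping between the paralogs is limited by their sequences. Of the 31-base words of Tead3 transcripts, 34 of 6841 also occur in another of the 10 genes, and for Tead4 the number is 29 of 3643. All 10 genes had whole-number counts in the table, so their values show no division of reads among genes.

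**Figure D2:**
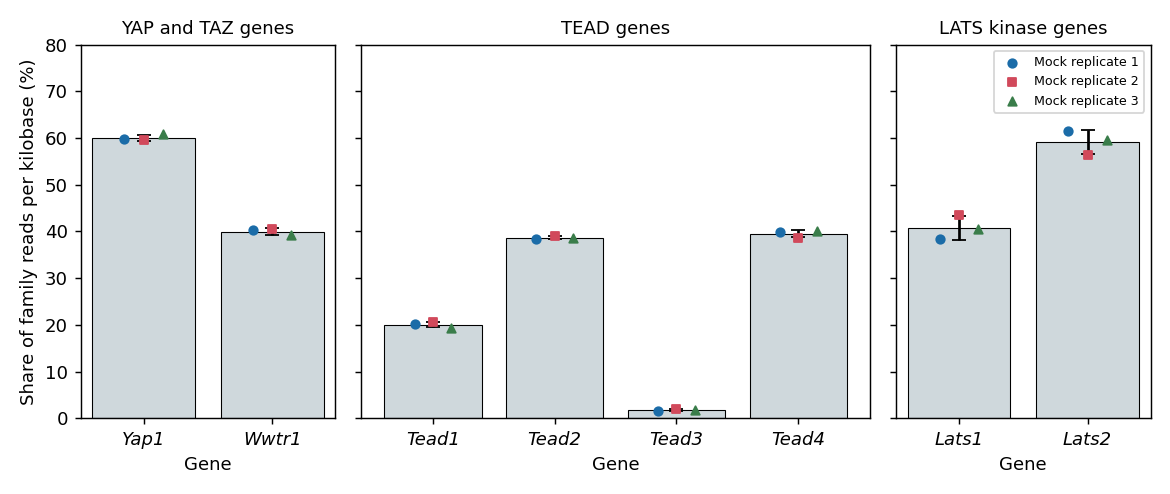
Share of the reads per kilobase of exon (%) held by each gene within the YAP and TAZ pair, the TEAD family and the LATS pair. Bars are means of 3 libraries, error bars are SDs and points are the libraries: Tead2 and Tead4 stand level near 39%, Tead1 holds 20.0% and Tead3 1.75%.

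Both LATS kinases, which phosphorylate YAP and TAZ, were transcribed. Lats1 (chromosome 10, 7681214 to 7716460, plus strand) stood at 84.1, 91.8 and 85.2 CPM in replicates 1, 2 and 3, with a mean of 87.0 ± 4.17 CPM. Lats2 (chromosome 14, 57689662 to 57758388, minus strand), which is itself a known target of YAP and TAZ, stood at 129, 114 and 119.8 CPM, with a mean of 121 ± 7.60 CPM. The values of Lats2 exceeded those of Lats1 in every library, by least in replicate 2. Per kilobase the log2 ratio of Lats2 to Lats1 was 0.68, 0.37 and 0.56, with a mean of 0.54 ± 0.15 (SE 0.06), 1.45-fold (limma adjusted p = 2.93e-22, higher in 3 of 3 libraries). By that test 28.5% of all genes lay above Lats1. With the longest transcript Lats2 lay 1.93-fold above Lats1. The level of Lats2 is uncertain, because 42.4% of its exon bases are shared on the same strand with the gene model Gm49361, and how the authors assigned such reads was not stated.

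The targets Cyr61 and Ctgf, whose proteins belong to the same family and respond to the same coactivators, stood far apart. Cyr61 (chromosome 3, 145646976 to 145649981, minus strand) had 526, 541 and 739 reads in replicates 1, 2 and 3, which is 56.2, 57.3 and 78.4 CPM, with a mean of 64.0 ± 12.5 CPM. Replicates 1 and 2 were close, and replicate 3 stood apart from both. Ctgf (chromosome 10, 24595442 to 24598683, plus strand) had 11, 8 and 6 reads, which is 1.18, 0.848 and 0.636 CPM, with a mean of 0.887 ± 0.271 CPM. The 25 reads together give an exact 95% Poisson interval of 0.573 to 1.31 CPM, which covers counting error only. Ctgf was therefore unresolved against 1 CPM (edgeR adjusted p = 0.588), above 0.5 CPM (adjusted p = 0.0382) and below 2 CPM (adjusted p = 0.00376). Over all alternatives, these thresholds and DESeq2 included, its adjusted p ran from 0.00376 to 0.962.

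Within the same libraries Ctgf lay 98.1-fold below Cyr61 per kilobase. The log2 ratio was -6.02, -6.50 and -7.33 in replicates 1, 2 and 3, with a mean of -6.62 ± 0.66 (SE 0.35, limma adjusted p = 2.22e-76, lower in 3 of 3 libraries). By the same test 83.3% of all genes lay below Cyr61, which stood at 31.7 ± 6.19 CPM per kilobase and percentile 89.6 of the table. Of the exon bases of Ctgf, 23.2% overlap the gene model Gm15270 on the other strand. The use of strand in counting was not stated, and Cyr61 shares no exon base with another gene.

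Promoter sequence is shown for Cyr61, the abundant target, and for the coactivator genes, because the 250 bases before their annotated starts hold the core letters of the TEAD recognition motif. That motif was searched as GGAATG and, on the other strand, CATTCC. The sequences are from RefSeq (GRCm38.p6), 5′ to 3′ on the strand of the gene, with the motif in capitals. The windows are chr3:145649986-145650235 for Cyr61, chr9:8004597-8004846 for Yap1 and chr3:57575911-57576160 for Wwtr1, all on the minus strand, and each ends at the last base before the start.
Cyr61: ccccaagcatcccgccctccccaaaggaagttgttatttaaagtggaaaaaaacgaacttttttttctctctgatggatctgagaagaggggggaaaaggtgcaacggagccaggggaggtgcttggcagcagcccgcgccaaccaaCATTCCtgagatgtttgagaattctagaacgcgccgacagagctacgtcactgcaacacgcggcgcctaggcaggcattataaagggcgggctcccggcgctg
Yap1: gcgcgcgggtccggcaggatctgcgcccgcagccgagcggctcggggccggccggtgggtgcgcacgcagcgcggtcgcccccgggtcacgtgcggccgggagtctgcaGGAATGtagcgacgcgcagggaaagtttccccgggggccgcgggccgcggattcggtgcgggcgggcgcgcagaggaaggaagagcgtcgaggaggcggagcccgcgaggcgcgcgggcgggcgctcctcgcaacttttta
Wwtr1: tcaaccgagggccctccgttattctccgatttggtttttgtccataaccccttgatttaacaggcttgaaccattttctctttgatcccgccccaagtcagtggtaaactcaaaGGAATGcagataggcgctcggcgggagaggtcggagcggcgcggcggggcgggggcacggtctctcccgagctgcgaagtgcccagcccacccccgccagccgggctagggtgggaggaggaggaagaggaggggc

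The motif begins 103 bases before the start in Cyr61, 141 bases before it in Yap1 and 136 bases before it in Wwtr1, whose other annotated start has the same site 170 bases before it. Windows were at hand for 7 of the 10 genes, the others being Ctgf, Tead1 and Tead4. The motif occurred in 4 of the 7, namely these 3 genes and Tead3, in which 2 of 3 alternative starts had it. No match was found in the windows of Tead2, Lats1 and Lats2. Over all genes, 14.4% of 27025 had the motif in at least 1 window, as did 12.6% of 32851 windows. A match of 6 letters describes the sequence and does not show binding, and the low Tead3 and the abundant Yap1 both had one.

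The order of the 10 genes depended in part on the length used. Per kilobase of merged exon Cyr61 led without overlap with the next gene. Yap1, Tead4, Tead2 and Lats2 followed, with means of 17.99, 17.9, 17.5 and 17.3 CPM per kilobase and ranges that overlapped from each to the next. Wwtr1 and Lats1 overlapped at 12.0 and 11.9, and Tead1 stood below them at 9.05. With the length of the longest transcript, tried after seeing the data, Yap1 (31.4, 30.9 and 32.3 CPM per kilobase in replicates 1, 2 and 3) overlapped with Cyr61 (27.8, 28.4 and 38.8) and was above it in replicates 1 and 2. Tead1, Wwtr1 and Lats1 then overlapped at 12.3, 12.2 and 12.1. Tead3 at 0.791 and Ctgf at 0.310 CPM per kilobase of merged exon were far lower, as with either length, at percentiles 39.8 and 35.5 of the table, where the median of all genes with a length was 2.86.

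Between the 3 libraries, Cyr61 differed by more than counting error, the only one of the 9 genes tested that did so by the adjusted p. Its value in replicate 3 was 1.39 times that in replicate 1 and 1.37 times that in replicate 2, while replicates 2 and 1 differed by a factor of 1.02. A Poisson deviance test over the libraries gave Cyr61 an adjusted p of 5.65e-08. Ctgf had too few counts for the test, and the 1 gene called of 9 stands beside 3.31% of 11000 genes tested. Among 8934 genes averaging 100 counts or more, Cyr61 ranked 28 by deviance and 75 by range. Cell type markers were among the genes called too: 4 of 6 pigment markers and 3 of 4 epithelial markers with enough counts. Tyrp1, Pmel and Sox10 ranked 3, 16 and 22 by deviance, which grows with the number of reads. The highest to lowest ratios of the pigment markers called were 1.06 for Tyrp1, 1.11 for Pmel, 1.15 for Sox10 and 1.04 for Dct. Cyr61 had a ratio of 1.39, and Krt8, Krt18 and Krt19 had 7.21, 10.2 and 8.82 from few reads. The call of Cyr61 rests on replicate 3: without it Cyr61 had an adjusted p of 0.947, and 0 of the pathway genes were called (1 at an unadjusted p under 0.05). Of the other 8 genes, Lats2 had the next largest deviance, with an adjusted p of 0.161 and a highest to lowest ratio of 1.13. Wwtr1 had the narrowest range, at 1.01.

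Yap1, Wwtr1 and the 4 TEAD genes had highest to lowest ratios between 1.01 and 1.21, and none was called. The part of their products in the value of Cyr61 was not tested. The summed epithelial markers were highest in replicate 1, not in replicate 3. The summed endothelial markers, at 12.4, 12.1 and 13.0 CPM, were highest in replicate 3. The summed fibroblast markers, at 39.1, 44.6 and 44.0 CPM, were about as high in replicate 2 as in replicate 3. The part of these markers in the value of Cyr61 was not tested. Ctgf was lowest in replicate 3, with 6 reads against 11 and 8.

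**Figure D3:**
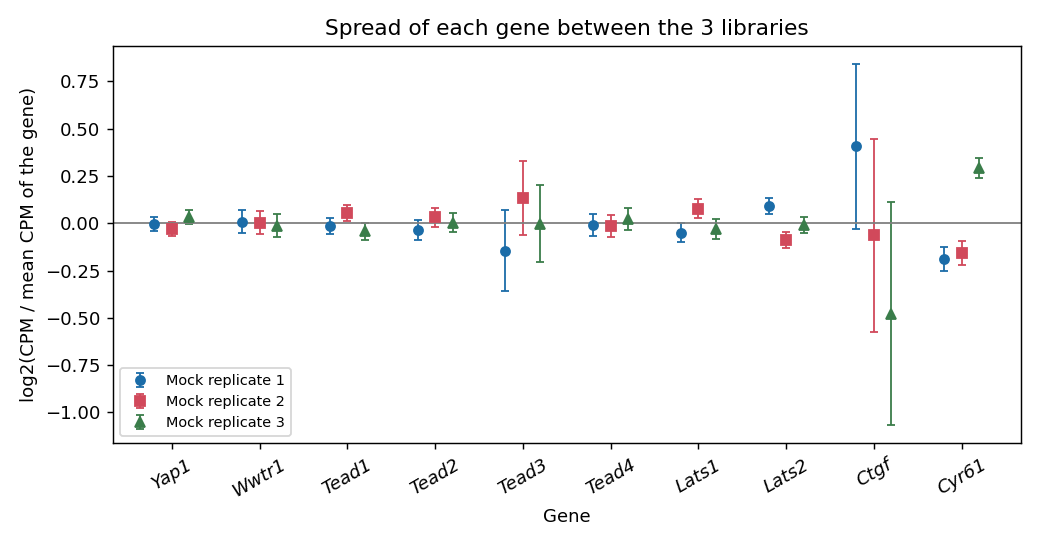
Log2 of each library's CPM over the gene's mean CPM, for the 10 genes in Mock replicates 1, 2 and 3. Bars show the Poisson standard error of the read count: Cyr61 in replicate 3 stands clear of replicates 1 and 2, Ctgf has wide bars from 6 to 11 reads, and the other genes stay near 0.

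The rest of the pathway was examined through 4 lists. Of 20 genes of the core cassette and its upstream regulators, 18 were above 1 CPM, with a list median of 78.5 CPM. The share above was 74.3% among the 14408 genes with a count, whereas the 20 include Fat4, which had none. The most abundant were the kinase gene Map4k4 (369 ± 2.49 CPM), the protocadherin gene Fat1 (311 ± 10.3 CPM), Mob1a, whose product activates LATS (199.9 ± 4.90 CPM), and Nf2, which encodes the tumour suppressor merlin (185 ± 5.18 CPM). The MST kinase genes Stk4 and Stk3 stood at 149 ± 1.75 and 53.6 ± 1.55 CPM, and the scaffold gene Sav1 at 56.9 ± 0.897 CPM. The giant cadherin genes Fat4 and Dchs1, which encode a receptor and its ligand, were the exceptions: Fat4 had no count, which allows up to 0.106 CPM, and Dchs1 had 2 reads and was below 1 CPM (edgeR adjusted p = 7.24e-04). Stk4, Stk3, Sav1 and Dchs1 were named after their values were seen.

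Of 10 measured inhibitors and partners of YAP, TAZ and TEAD, 9 were above 1 CPM, with a median of 128 CPM. That stands beside 74.3% of genes with a count, whereas the 10 include Vgll1, which had none. Vgll3, a vestigial-like cofactor that binds TEAD proteins, stood far above the others, with 1096, 1087 and 1070 CPM in replicates 1, 2 and 3 (mean 1084 ± 12.9 CPM). Per kilobase of merged exon it reached 153 ± 1.81 CPM, at percentile 98.4 of the table, and its libraries did not overlap with those of Yap1. The ratio to Yap1 depends on the length used: it was 8.48 per kilobase of merged exon and 6.51 in CPM without length. The related Vgll4, a repressor of TEAD output named after its value was seen, stood at 133 ± 7.91 CPM, and Vgll1 had no count. The LIM protein gene Ajuba reached 207 ± 10.7 CPM from partly fractional counts, so its level is uncertain. The angiomotin-like genes Amotl1 and Amotl2, whose proteins hold YAP at junctions, reached 176 ± 4.49 and 165 ± 5.06 CPM. Vgll2 was not analysed here. All 6 genes of STRIPAK, a phosphatase complex that counters the MST kinases, were above 1 CPM, beside the same 74.3%, with a median of 92.4 CPM. They were led by Strn3 (114 ± 3.32 CPM), Strn (104 ± 1.53 CPM), Slmap (102 ± 1.09 CPM) and Strn4 (82.9 ± 3.49 CPM).

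Other known YAP and TAZ targets were listed as well. Of 18 with a row, 12 were above 1 CPM, 5 were below and 1 was unresolved, beside 74.3% of all genes above and 20.2% below, with a median of 70.1 CPM. The highest were Arhgef17 (305 ± 8.09 CPM), Amotl2 again, Igfbp3 (144 ± 6.70 CPM), which encodes a binding protein of insulin-like growth factors, and Crim1 (136 ± 1.35 CPM). The tissue factor gene F3 and the receptor kinase gene Axl, named after their values were seen, stood at 95.2 ± 4.19 and 78.3 ± 1.02 CPM. Ankrd1, like Ctgf a target often used as a readout, had 20, 11 and 9 reads, or 1.42 ± 0.630 CPM, and was unresolved (edgeR adjusted p = 0.130). The 5 genes below 1 CPM were Ccdc80 with 10 reads, Tgfb2 with 8, Rbms3 with 5, Nuak2 with 3 and Nt5e with 1. Of these, Ccdc80 and Tgfb2 lost the call without replicate 2 or 3 (edgeR adjusted p from 0.0515 to 0.0798), Rbms3 lost it without replicate 2 (0.0849), and Nt5e had no count left without replicate 1. The level of Foxf2 was not analysed here. The motif searched above occurred before the start of 5 of 13 targets with a window, beside 14.4% of 27025 genes in at least 1 window. Among the 5 were the abundant Amotl2 and the scarce Ankrd1.

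**Figure D4:**
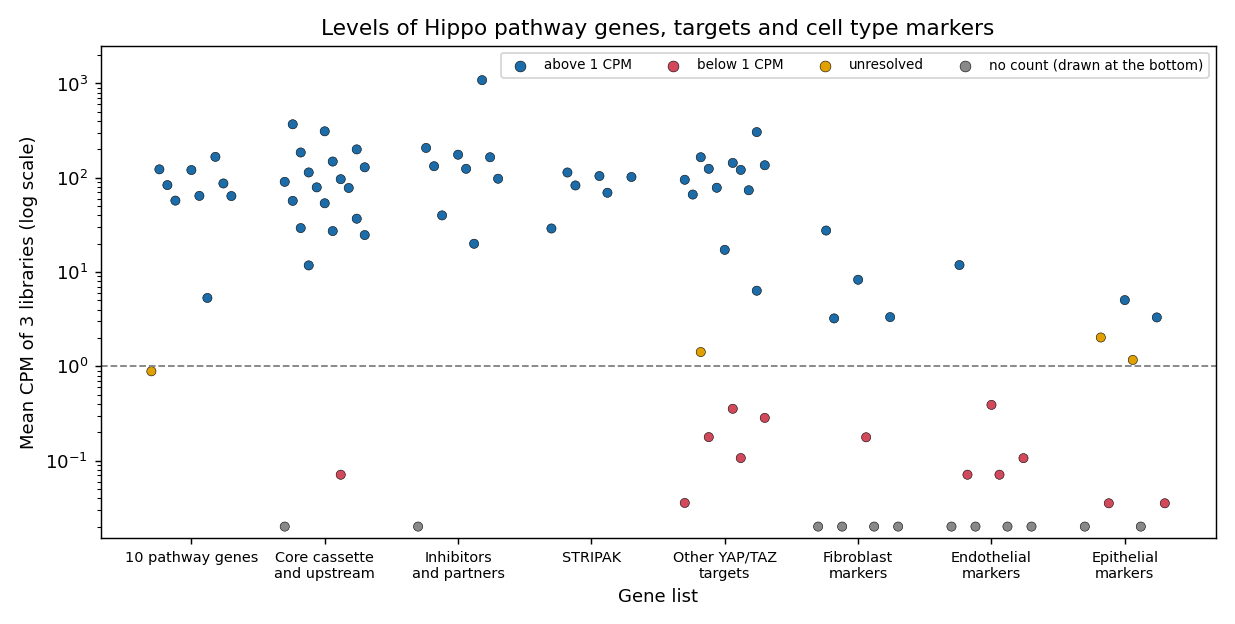
Mean CPM (log axis) of every measured gene of each list shown, coloured by its call against 1 CPM (dashed line). Genes without a count are drawn at the bottom. The cassette, the partners and STRIPAK lie mostly near 100 CPM with Vgll3 near 1084 CPM, and the targets split into 12 above and 5 below. The fibroblast, endothelial and epithelial markers lie mostly low. Pigment cell and leukocyte markers are not drawn.

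Of these 4 lists, the core cassette alone held a gene that differed between libraries. Wwc2, which encodes a relative of the scaffold KIBRA, stood at 99.1, 89.1 and 83.2 CPM in replicates 1, 2 and 3 (Poisson deviance adjusted p = 0.0390) and lost the call without replicate 1 (0.683) or 3 (0.304). It was 1 of 18 cassette genes tested, beside 3.31% of all genes. None of 13 tested targets was called, and 1 was at an unadjusted p under 0.05. None of 9 inhibitors and partners was called (2 unadjusted), and none of 6 STRIPAK genes (0 unadjusted).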

How the data were processed

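Total RNA of 3 samples of a B16 line was purified on NucleoSpin columns and made into libraries by BGI, per the labels' protocols. The submitters' processing notes name the genome build GRCm38.p6. For the aligner, counting tool, annotation, RNA selection and strand setting, nothing is given in the sources used here. Each column of the table the authors deposited holds 1 sample's estimated counts per gene symbol, unscaled. In 13.1% of rows a value lay more than 0.005 away from a whole number, and counts were rounded.

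Counts were scaled by TMM. Levels were tested against 1 CPM with the quasi-likelihood F statistic of edgeR 4.0.16 in R 4.3.3 (intercept-only model, two-sided, Benjamini-Hochberg over 14408 genes with a count, called at an adjusted p under 0.05). Ratios per kilobase, from counts plus 0.5 and merged exon lengths of GENCODE M21, were tested with limma 3.58.1. Variation between libraries was tested by Poisson deviance (chi-square) for means of at least 10 counts, and DESeq2 1.42.0 served as an alternative, beside other scalings, filters, thresholds, lengths and each replicate left out. The symbols Ctgf and Cyr61 were matched to Ccn2 and Ccn1 through RefSeq synonyms. The tests were also run on simulated negative binomial and Poisson counts, which does not show that the real counts follow these models.

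The members and lists were chosen with earlier results of these data known. By rule, all 10 members were named, and in each list fixed with the design the 4 genes of highest mean CPM and those without a count.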

Additional observations from a re-analysis of the deposited data

How the results depend on the processing

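No paired analysis was possible because there is 1 group. The count of 9 genes above 1 CPM was 9 or 10 under all 9 alternatives to the level test, and the count below 1 CPM changed only against 2 CPM, where Ctgf made it 1. Against 0.5 CPM the log2 distance of Ctgf turned positive, at 0.77. Over the whole table, genes below 1 CPM numbered 409 among genes with at least 10 counts (fewer low genes were tested), 0 by DESeq2's Wald test (0 at an unadjusted p under 0.05, so it could not decide on low genes) and 1835 to 2203 with 1 replicate left out, against 2907. Genes that differed between libraries numbered 129 to 244 with 1 replicate left out, against 364, and the members among them 0 to 1. Without length, the log2 ratios to Tead1 reversed to -0.55 for Tead2 and -0.93 for Tead4, and the shares became 74.4% for Yap1, 44.5% for Tead1, 30.3% for Tead2, 1.92% for Tead3 and 23.3% for Tead4. With the longest transcript they were 72.1%, 20.8%, 41.5%, 2.60% and 35.2%, and that of Lats2 was 65.8%. These shifts follow from the lengths alone. Depth limits Ctgf, Ankrd1 and the scarce targets, for which 1 read is 0.106 CPM.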

Other observations

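Other members of the CCN family, to which Ctgf and Cyr61 belong, were listed after the values of those genes were seen. Wisp1 (Ccn4) stood at 55.8, 54.3 and 52.2 CPM in replicates 1, 2 and 3, with a mean of 54.1 ± 1.80 CPM, and was not called as differing between libraries (Poisson deviance adjusted p = 0.834). Wisp2 (Ccn5) had 2 reads in all and Wisp3 (Ccn6) 5, and edgeR called both below 1 CPM (adjusted p = 0.00160 and 0.00183). Wisp2 lost the call without replicate 1 (0.0510) and had no count left without replicate 3. Of the 5 CCN genes measured, Cyr61 and Wisp1 were thus the abundant ones, and Ctgf was unresolved. The gene Nov was not analysed here.

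Cyr61 is also known as an immediate early gene of the serum response, so 16 such genes were listed after its high value in replicate 3 was seen. The part of a serum response in the value of Cyr61 was not tested. Of 13 with enough counts, 2 differed between libraries, beside 3.31% of all genes. Both were highest in replicate 3. Myc stood at 94.9, 99.1 and 114 CPM (Poisson deviance adjusted p = 0.00450) and the transcription factor gene Srf at 60.6, 62.1 and 73.8 CPM (adjusted p = 0.0240). Neither was called without replicate 3 (0.792 and 0.930) or without replicate 1 (0.0780 and 0.106). Jun, at 19.0, 19.0 and 22.1 CPM, was also highest in replicate 3 but was not called (adjusted p = 0.618), and Egr1, at 0.427, 0.742 and 1.27 CPM, was highest there too with too few counts for the test. Klf6, at 62.2, 56.6 and 63.0 CPM, and Egr3, at 0.855, 2.332 and 2.333 CPM, were also highest in replicate 3. Neither was called (Poisson deviance adjusted p = 0.528 and 0.183). Egr2, at 0.855, 0.848 and 1.17 CPM, was highest there with too few counts for the test. The rest of the list was not highest in replicate 3, and none of it was called. Among these genes, Fos had 7.48, 6.25 and 6.47 CPM, Ier2 55.1, 58.1 and 56.1 CPM, and Nr4a1 149, 149 and 146 CPM. Of the 364 genes that differed between libraries, 130 were highest in replicate 3, 129 in replicate 1 and 105 in replicate 2.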
